A study of Homo sapiens with 40 samples.

Results

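Of the 13076 enhancers listed in senescent EndoC-βH3 cells, 2680 (20.5%, 95% Wilson interval 19.8 to 21.2%) overlapped none of the 14886 enhancers listed in non-senescent cells by even 1 bp. These 2680 senescent-only enhancers are the subject here. The other 10396 senescent-list enhancers were shared with the non-senescent list, and 4371 enhancers of the non-senescent list overlapped none of the senescent list. Members were thus chosen by measured values, since the study took an enhancer to be a region outside promoters with both H3K4me1 and H3K27ac signal, and absence from the other list is what selected them. Their presence and H3K27ac level are therefore descriptions, and no test was made on them.

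EndoC-βH3 is 1 human pancreatic beta-like cell line, which carries immortalising transgenes and a tamoxifen-activated Cre recombinase (CreER) that excises them. Senescent cells had received tamoxifen for 3 weeks, and non-senescent cells of the same line, with the same genotype label (WT), had not, so excision of the transgenes, drug exposure and senescence cannot be told apart. Libraries numbered 3 per state for H3K27ac and CTCF, 2 per state for H3K4me1 and for the cell-cycle repressor Rb, each with its own input (40 in all), and the labels do not say whether replicates were separate cultures. The analysed files held 1 enhancer list per state, 1 table each of 51489 H3K27ac and 51457 CTCF peaks, and 2435 regions where Rb signal in senescent cells exceeded that in non-senescent cells. No value per library was used, the files used give no library depth, and the only level given for a peak is the authors' mean normalised count over the libraries of both states, which has no SD. Intervals below therefore cover counting error over regions only, not the spread between cultures.

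Enhancers are stretches of DNA, often far from the gene they act on, where transcription factors bind and raise the activity of promoters. H3K4me1 marks enhancers in general, and H3K27ac marks those that are active. In beta cells, enhancers are bound by lineage factors that include PDX1, the homeodomain protein NKX6-1, the forkhead protein FOXA2, the bHLH protein NEUROD1 and the large MAF protein MAFA, a regulator of the insulin gene in mature beta cells. CTCF is a DNA-binding protein that anchors chromatin loops and boundaries, and can also sit within enhancers.

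The sequence of the senescent-only enhancers differed from both other classes in a pair of short words. The heptamer TGCTGAC, the core of the element bound by MAF proteins, stood in the central 500 bp of 318 of the 2680 (11.9%, interval 10.7 to 13.1%). Shared enhancers held it in 9.24% (8.70 to 9.82%) and non-senescent-only ones in 8.95% (8.13 to 9.83%), and 5.98% of 20033 windows of the same length at protein-coding gene starts did. The bHLH E-box CANATGG, bound by NEUROD1 and its relatives, went the other way, at 30.7% (29.0 to 32.5%) of senescent-only, 34.7% (33.8 to 35.7%) of shared and 38.9% (37.5 to 40.4%) of non-senescent-only enhancers, against 15.7% at gene starts. For both words the interval of the senescent-only class met neither of the others. All words were searched on both strands, and a match describes the letters and not a bound site.

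The TGCTGAC word is shown here in the senescent-only enhancers nearest to genes of a list of 29 beta-cell transcription factors, because they lie nearest to genes known in this cell type. Of the 19 such enhancers, 6 held TGCTGAC (31.6%, beside 26.5% of all senescent-only enhancers over their whole width), and 4 of the 6 are shown. Each line gives a short window of the plus strand of hg38 with the word in capitals, which reads GTCAGCA where it lies on the minus strand.
FOXA2, chr20:22449013-22449113: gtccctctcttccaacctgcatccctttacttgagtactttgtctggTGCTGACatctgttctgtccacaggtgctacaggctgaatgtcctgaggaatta
FOXA2, chr20:22629507-22629607: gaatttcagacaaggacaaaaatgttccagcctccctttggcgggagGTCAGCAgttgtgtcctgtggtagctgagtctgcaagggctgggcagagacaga
MLXIPL, chr7:73611347-73611447: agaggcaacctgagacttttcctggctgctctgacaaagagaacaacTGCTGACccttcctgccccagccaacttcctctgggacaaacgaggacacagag
PAX6, chr11:31779417-31779517: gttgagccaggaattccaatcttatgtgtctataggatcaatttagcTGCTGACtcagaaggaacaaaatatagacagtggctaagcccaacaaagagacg

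In the line for PAX6 the word runs into TGACTCA, the site of AP-1 (dimers of FOS and JUN proteins), with which it shares letters. Such a joined word was found in the central 500 bp of 20 senescent-only enhancers (0.746%, interval 0.484 to 1.15%), 33 shared ones (0.317%, 0.226 to 0.445%) and 13 non-senescent-only ones (0.297%, 0.174 to 0.508%). TGCTGAC apart from any AP-1 site remained at 11.2% (10.1 to 12.5%), 8.96% and 8.67% of the 3 classes. AP-1 sites in all were in 11.2% (10.0 to 12.4%) of senescent-only, 9.56% (9.01 to 10.1%) of shared and 10.1% (9.23 to 11%) of non-senescent-only enhancers, so that the intervals overlapped.

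Other words of beta-cell factors differed less. The forkhead word TGTTTAC was in 11.2% (10.0 to 12.4%) of senescent-only, 11.9% of shared and 13.4% (12.4 to 14.4%) of non-senescent-only enhancers, with the interval of the first just below that of the last. The homeodomain word TAATTA stood at 17.8%, 16.3% and 17.4%, and the interferon regulatory factor (IRF) element at 8.66%, 8.10% and 8.67%, with overlapping intervals throughout. The longer RFX X-box and CTCF core were matched in under 1% of each class.

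**Figure D1:**
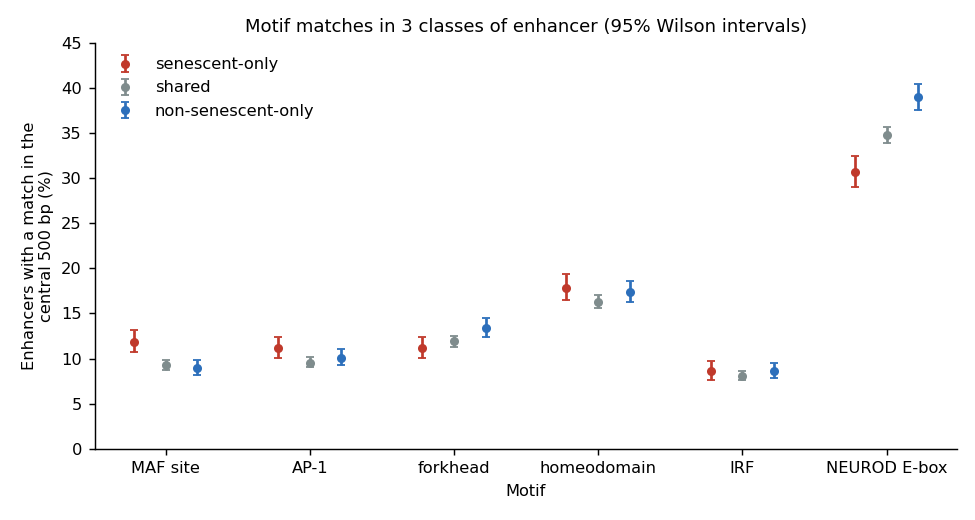
Percent of enhancers with a match to each motif in the central 500 bp, for senescent-only, shared and non-senescent-only enhancers, with 95% Wilson intervals as bars. The MAF site is highest and the NEUROD E-box lowest in the senescent-only class, while the homeodomain and IRF intervals overlap.

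To see whether other words set the class apart as much, the share of enhancers holding each of the 2080 hexamers (a word and its reverse complement counted as 1) was compared between classes. TGCTGA, the first 6 bases of the MAF word, had the largest excess over both other classes, at 42.9% (41.0 to 44.8%) of senescent-only, 37.6% of shared and 36.4% (34.9 to 37.8%) of non-senescent-only enhancers. CAGATG, an E-box that the bHLH word includes, had the largest deficit against both, at 35.2% (33.4 to 37.1%), 40.7% and 46.3% (44.8 to 47.8%). These 2 hexamers were singled out after their values were seen. The next excess over the non-senescent-only class, CTCAGC, was 5.34 percentage points and overlaps TGCTGA on its other strand. The next deficit, ACAGAT, was -5.19 points and overlaps CAGATG. Against shared enhancers these next words stood out less, at 2.31 points (rank 156) and -0.335 points. There other words came close to the pair, which stood at 5.26 and -5.52 points. CCCTCC had the second largest deficit (-4.96 points), and TAAGAA ranked 4 by excess (4.49 points).

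The pair moved in opposite directions within the same set of enhancers. TGCTGA without CAGATG was found in 26.9% (25.3 to 28.7%) of senescent-only enhancers, 21.3% of shared and 18.6% (17.5 to 19.8%) of non-senescent-only ones. CAGATG without TGCTGA was found in 19.3% (17.8 to 20.8%), 24.4% and 28.6% (27.2 to 29.9%). Windows with both words or with neither differed less, at 16.0% and 37.8% of the senescent-only class and 17.7% and 35.1% of the non-senescent-only class.

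Base composition differed slightly, with a median GC of 42.3% in senescent-only, 43.8% in shared and 43.2% in non-senescent-only enhancers. Within windows of like GC the senescent-only class stayed highest for TGCTGA. Where GC was 45 to 50%, TGCTGA was in 50.5% (46.2 to 54.8%) of 507 senescent-only windows, 40.5% of shared and 36.7% (33.5 to 40%) of non-senescent-only ones. In windows below 40% GC it was in 39.1% (35.9 to 42.4%), 33.9% and 33.0% (30.5 to 35.6%). The gap was narrowest at 40 to 45% GC, with 41.7% (38.1 to 45.4%) against 40% and 38.2% (35.5 to 41.0%), where the intervals overlapped. CAGATG was lowest in the senescent-only class in each of the 4 GC ranges, for example 38.7% (34.5 to 43.0%) against 51.6% (48.2 to 55.0%) of non-senescent-only windows at 45 to 50% GC.

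Both words were commonest near the centre of the enhancers and rarer toward 1 kb on either side. In the 100 bp to the right of the centre, TGCTGA began in 11.1% (9.98 to 12.4%) of senescent-only and 9.36% (8.53 to 10.3%) of non-senescent-only enhancers, while at the left end of the 1 kb flank it began in 7.16% and 7.25%. CAGATG began in the same central bin in 9.33% (8.28 to 10.5%) of senescent-only and 12.5% (11.6 to 13.5%) of non-senescent-only enhancers, and at the left end in 7.13% and 7.32%. In single flank bins classes could still differ, as for TGCTGA at 800 to 900 bp on the right, with 5.41% (4.62 to 6.33%) of senescent-only and 7.21% (6.73 to 7.73%) of shared enhancers.

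**Figure D2:**
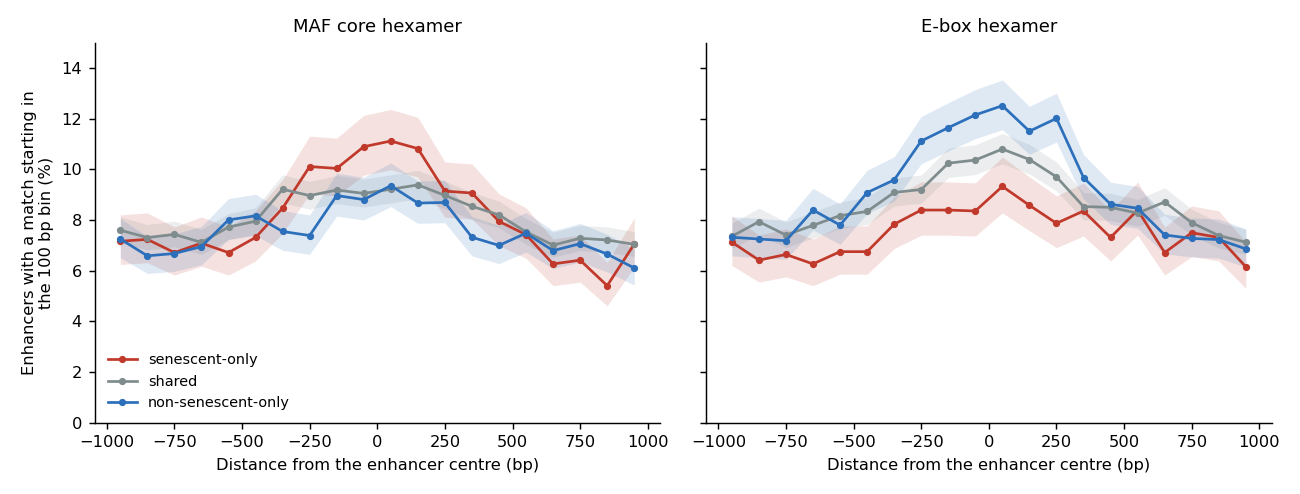
Percent of enhancers with the MAF core hexamer (left) or the E-box hexamer (right) starting in each 100 bp bin, by distance from the enhancer centre, with 95% Wilson intervals shaded. The senescent-only line is the highest at the centre on the left and the lowest at the centre on the right, and all lines are lower toward the flanks.

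Members with and without the MAF word had like median size and level. Senescent-only enhancers with TGCTGAC had a median width of 1607 bp and a median H3K27ac mean count of 66.9 per kb of peak, against 1569 bp and 66.9 in those without. They lay a median of 40892 bp from a start site against 32664 bp, and overlapped a CTCF peak in 17.6% (13.8 to 22.2%) against 18.8% (17.2 to 20.4%). TGCTGA stood at 40.6% (36.8 to 44.5%) in the 626 members within 10 kb of a non-senescent enhancer and 44.6% (41.7 to 47.4%) in the 1149 members over 50 kb from one, with overlapping intervals.

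In size the senescent-only enhancers were small and moderately marked. Their median width was 1570 bp (interval of the median 1541 to 1603 bp), close to the 1573 bp (1551 to 1601) of non-senescent-only enhancers and below the 2822 bp (2778 to 2867) of shared ones. The lowest width was 500 bp and the highest 9991 bp. All 2680 lay in a peak of the H3K27ac table, in 2669 different peaks, and 11 peaks held 2 members each. The authors' mean H3K27ac count had a median of 136 per peak, or 66.9 per kb of peak (66.2 to 67.6), against 117 (115 to 118) in shared and 66.6 (65.8 to 67.3) in non-senescent-only enhancers. That median sat at 50.2% of the ranking of all H3K27ac peaks by count per kb. Only 434 members had the same bounds as their peak, and the median member covered 84.6% of it. In the 1550 members that covered 80% or more, the median was 68.5 per kb, beside 129 in shared enhancers chosen the same way. Since the mean was taken over both states, it does not say how much of this signal came from senescent cells.

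**Figure D3:**
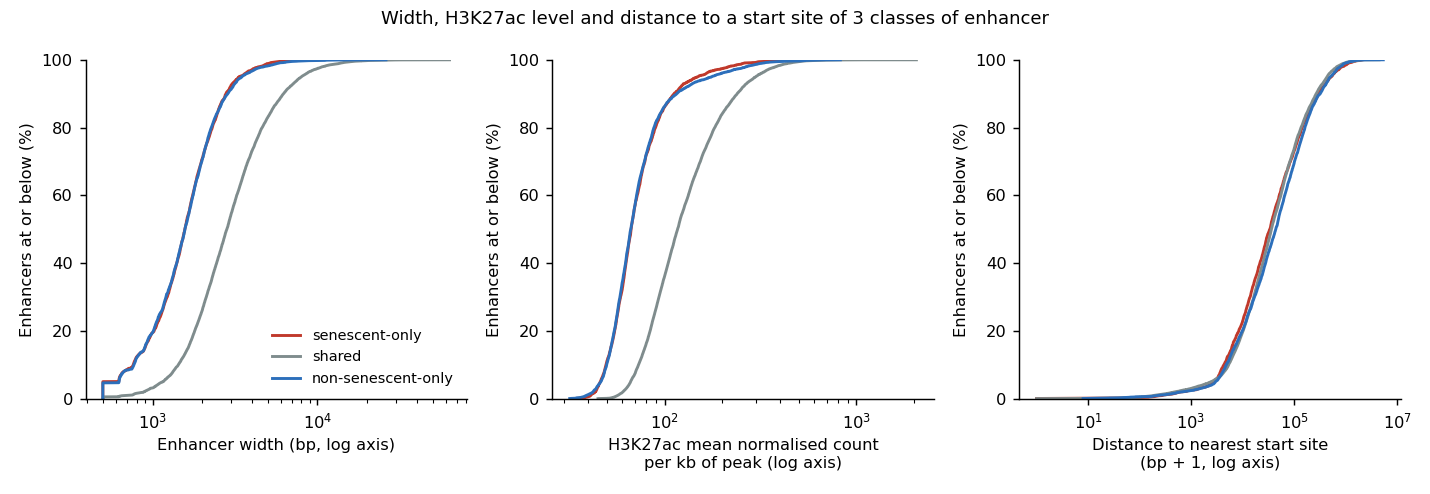
Cumulative percent of enhancers by width, by the authors' mean H3K27ac count per kb of peak and by distance to the nearest protein-coding start site, on log axes. The senescent-only and non-senescent-only lines run together for width and H3K27ac, to the left of the shared line (median widths 1570, 1573 and 2822 bp), and the 3 distance lines lie close to each other.

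By the rule no member overlapped a non-senescent enhancer, and 626 members (23.4%) lay within 10 kb of one. The gap from a member to the nearest non-senescent enhancer had a median of 36519 bp and ranged from 123 bp to over 5 Mb. From non-senescent-only enhancers to the senescent list the median gap was similar, at 39979 bp. Just inside the rule were members in TMEM131 (gap 123 bp), NR4A3 (135 bp) and QDPR (223 bp). Just outside were shared enhancers nearest to AGBL4, MRPL33 and MED14, which overlapped a non-senescent enhancer by 36, 45 and 60 bp, or 4.70 to 8.49% of their width. The members farthest away included those nearest to the neural adhesion gene CHL1 (1352015 bp), to LRFN5 (1276145 bp), to the ubiquitin-conjugating enzyme gene UBE2E1 (1257818 bp) and to ARPP21 (1224044 bp), and 1 lay on the Y chromosome, where the files listed few enhancers. Within 12.5 kb of a member there was a shared enhancer in 623 cases (23.2%) and a non-senescent-only one in 162 (6.04%).

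Read along each chromosome, the members formed 2199 runs with no other listed enhancer in between. Of these, 1810 were single members, 309 were pairs and 80 had 3 or more. The longest runs had 5 members, 1 of them over 2816 kb of chromosome 4 beside NEIL3, AGA and TENM3. Runs of 4 included 1 of 113 kb on chromosome 5 beside NDUFS6 and the homeobox gene IRX4, and 1 of 233 kb on chromosome 1 from POGZ to RIIAD1. A run of 4 over 293 kb of chromosome 7 lay beside NUP205, FAM180A and MTPN.

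By chromosome, members made up 14.1% (10.5 to 18.7%) of the senescent list on chromosome 22 and 26.1% (21.9 to 30.7%) on chromosome 20, the lowest and highest of the 22 autosomes and X. On chromosome 20, 98 of 376 senescent-list enhancers were members, and 23.9% (19.8 to 28.4%) of its non-senescent-list enhancers were absent from the senescent list, against 29.4% (28.6 to 30.1%) genome-wide. Without chromosome 20 the share of members in the senescent list was 20.3%.

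Against GENCODE genes, 1461 members (54.5%, 52.6 to 56.4%) had their centre in an intron of a protein-coding gene, 1029 (38.4%, 36.6 to 40.3%) between genes, 94 (3.51%) in an exon and 96 (3.58%) within 2 kb of a protein-coding start. Non-senescent-only enhancers were more often between genes, at 44.6% (43.1 to 46.1%), and less often in introns, at 49.3% (47.8 to 50.8%). The study's enhancers exclude its active promoters, and why these members lie near starts was not tested. The median distance from a member's centre to a protein-coding start was 33872 bp (30411 to 36171), beside 36352 bp (35178 to 37629) for shared and 44112 bp (41560 to 47405) for non-senescent-only enhancers, so that the last lay farther out than the members.

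CTCF peaks were found in 499 members (18.6%, 17.2 to 20.1%), the same share within its interval as in non-senescent-only enhancers (18.0%, 16.9 to 19.1%) and below that of shared ones (27.3%, 26.4 to 28.1%). In each class the share was highest among enhancers over 5 kb. Among enhancers of 2 to 3 kb the shares were 20.3% (17.2 to 23.7%) in 582 members, 21.3% (19.9 to 22.8%) in shared and 19.1% (16.7 to 21.8%) in non-senescent-only enhancers. Among those of 1.5 to 2 kb the members stayed lower, at 16.2% (13.6 to 19.2%) against 21.7% (19.7 to 23.9%) in shared ones. Within the members the share also went with H3K27ac, from 13.1% (10.8 to 15.9%) in the lowest of 4 equal groups by count per kb to 28.2% (24.9 to 31.7%) in the highest. Median width rose over the same groups, from 1269 to 1958 bp, and whether the share went with level apart from width was not tested. The strongest CTCF peak of a member had a median mean count of 52.3, near the 58.6 of all CTCF peaks.

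**Figure D4:**
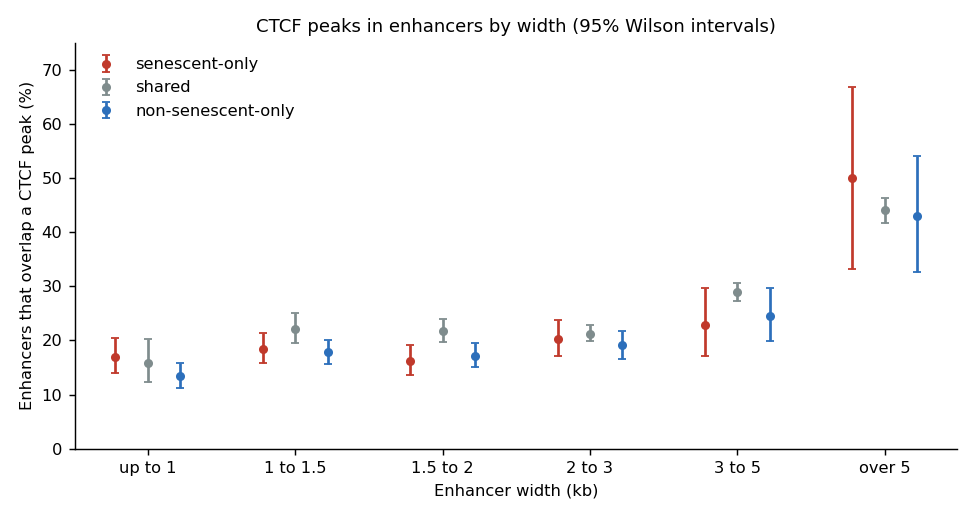
Percent of enhancers that overlap a CTCF peak, by enhancer width and class, with 95% Wilson intervals. The share is highest above 5 kb in each class, and at 2 to 3 kb the 3 classes lie between 19.1 and 21.3%.

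The 5 members holding the centre of the strongest CTCF peaks ranged from 521 to 676 in mean count, above 98.3% of all CTCF peaks. They lay near CD34, a surface marker of blood progenitors and endothelium (676), and near a gene with no symbol on chromosome 1 (594). Others were in the gene for the gut enzyme MGAM beside TAS2R38, a bitter taste receptor (544), and in PLEKHA6 (523). The last was nearest to the kinase gene CAMK1G (521), whose start lay 376064 bp away. In 2 of them the letters of a strict CTCF core were present, shown in capitals because they place a CTCF motif inside a senescent-only enhancer under a strong peak.
Gene with no symbol, chr1:147627633-147627733: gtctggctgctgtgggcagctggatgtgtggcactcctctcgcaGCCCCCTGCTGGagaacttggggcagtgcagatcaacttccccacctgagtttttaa
TAS2R38, chr7:141976374-141976474: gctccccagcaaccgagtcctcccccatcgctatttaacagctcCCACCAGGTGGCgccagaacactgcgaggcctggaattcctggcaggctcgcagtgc

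The letters of the core occurred in 43 members, of which 36 overlapped a CTCF peak. The H3K27ac mean counts of those 5 members ran from 94.9 for the TAS2R38 member to 1987 for the PLEKHA6 member.

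Rb regions met 5 members (0.187%, 0.0797 to 0.436%), against 47 shared (0.452%, 0.340 to 0.601%) and 7 non-senescent-only enhancers (0.160%). The Rb regions come from senescent cells with the non-senescent signal as control, so these members are listed for senescent cells on both measures. One stood at chr10:89836741-89838294, between genes and nearest to KIF20B, a kinesin of cytokinesis, and shared 604 bp with its Rb region. Another was at chr17:60887192-60888462, at an alternative start of BCAS3 only 547 bp away, with 243 bp shared and an H3K27ac mean count of 276. Next came chr7:38310685-38312158 near TARP, of the T-cell receptor gamma locus (395 bp shared), then chr5:29191513-29192457, whose nearest gene, the cadherin CDH6, was 2001702 bp away (279 bp shared), and the last at chr3:168475574-168477698 toward GOLIM4, with an overlap of only 17 bp.

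By the nearest start site, the 2680 members fell to 2062 of 19663 protein-coding genes (10.5%). Of these genes, 1661 had 1 member, 264 had 2 and 137 had 3 or more. A shared enhancer was also nearest to 1262 of them and a non-senescent-only one to 776, while 660 genes had members (715 in all) and no other listed enhancer. The nearest gene is a label of position, and nothing in these files shows which gene a member acts on. A member called near a gene has a start of that gene as its nearest, at whatever distance.

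The gene with the most members was CELF4, an RNA-binding regulator of splicing in neurons, with 10 members beside 15 shared and 5 non-senescent-only enhancers. Of the 10, 3 lay in its own introns, 1 in a neighbouring gene and 6 in the intergenic stretch on its other side, as far as 1947678 bp from a start. Their H3K27ac mean counts ran from 53.8 to 269, beside medians of 136 in all members and 417 in shared enhancers. CADM1, an adhesion molecule of neurons and islet cells, had 8 members, 4 of them in its introns, 1 within 866 bp of a start and 3 outside it, with counts from 77.4 to 462. ZNF608 had 7 members beside 31 shared enhancers, the largest total of these genes, and 2 of the 7 shared 1 peak.

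PIK3C3, the lipid kinase VPS34 of autophagy, also had 7 members, 5 of them between genes and 4 in a run of 547 kb with no other listed enhancer. GPC5, a heparan sulphate proteoglycan, had 7 members and only 6 shared enhancers, so that members made up 53.8% of its senescent list. ARID1B, a subunit of the SWI/SNF chromatin remodeller, had 6, including 1 at 586 bp from an internal start with an H3K27ac count of 1507 and a CTCF peak of 160. PDE4D, a phosphodiesterase that breaks down cAMP, had 6, all in its introns.

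Among genes with 5 members, FARP1 and the nuclear receptor corepressor NRIP1 had no non-senescent-only enhancer, nor had FMN1, and members were 41.7% and 62.5% of the senescent lists of the first pair. The NRIP1 member with the highest H3K27ac mean count (2434) lay in its intron, 6572 bp from a start, in a peak of 10228 bp that held 3 starts and of which it covered 30.1%. The histone deacetylase gene HDAC4 had 5 members, 14 shared and 5 non-senescent-only enhancers.

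**Figure D5:**
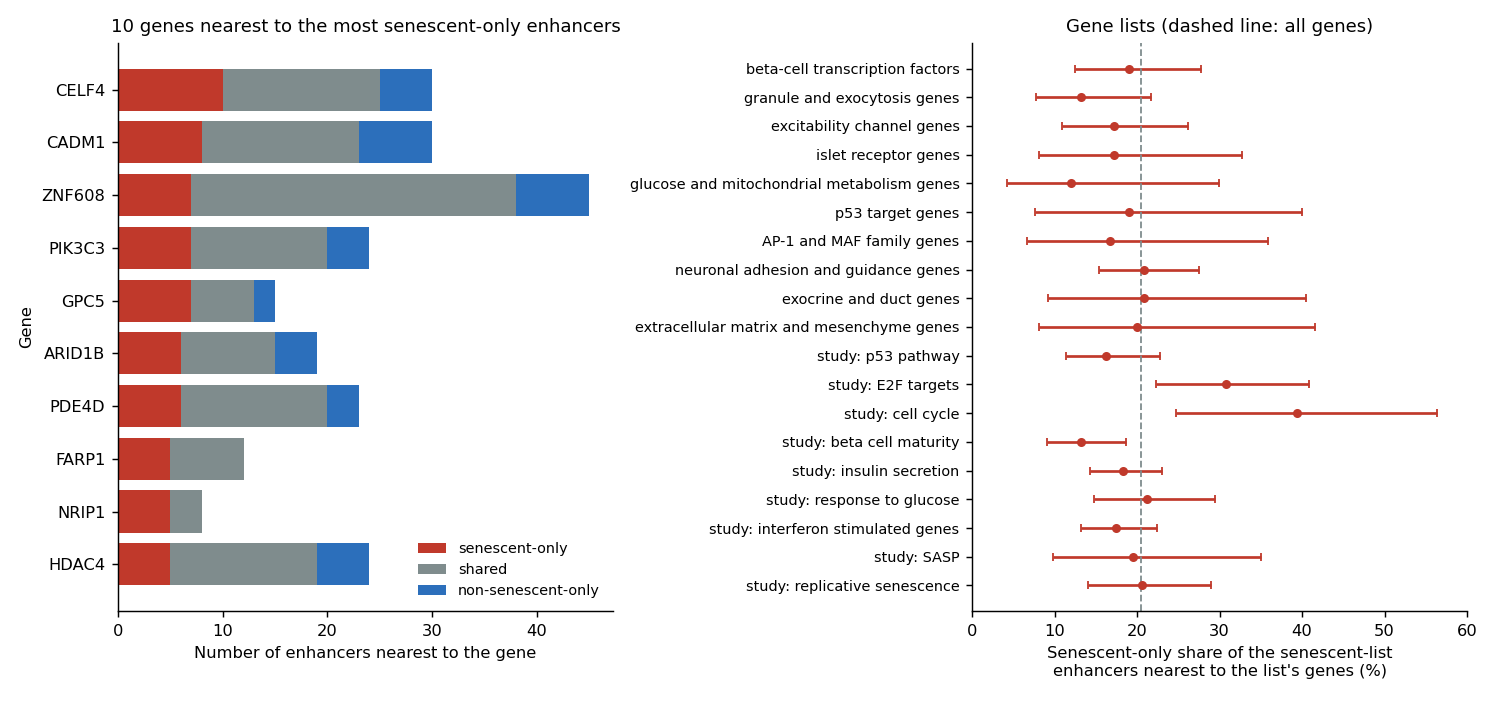
Left, the number of enhancers nearest to each of the 10 genes with the most senescent-only enhancers, by class. Right, the senescent-only share of the senescent-list enhancers nearest to the genes of each list with 20 or more such enhancers, with 95% Wilson intervals and the share over all genes (20.5%) as a dashed line; the study's cell cycle and E2F target lists lie to the right of the line and its beta cell maturity list to the left.

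Beta-cell transcription factors were often next to a member, but members were no larger a share of their enhancers than elsewhere. Of 29 such genes, 14 (48.3%) were nearest to at least 1 member, against 10.5% of all genes. A shared enhancer was nearest to 22 of the 29, against 4992 of all 19663 genes. The 29 genes had 100 senescent-list enhancers in all, of which 19 were members (19%, 12.5 to 27.8%), beside 20.5% over all genes. FOXA2 and ISL1, an early islet homeodomain factor, had 3 members each, and ST18 had 2. The 3 near FOXA2 lay between genes at 44522 to 135044 bp, with H3K27ac mean counts of 233, 411 and 326, and those near ISL1 had counts of 102, 39.4 and 212.

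PDX1, the master regulator of pancreas and beta-cell identity, had a member at chr13:27943318-27944795, 24056 bp from its start, with a count of 191 and no other listed enhancer nearest to it. MAFA had 1 member, 15679 bp away in an intron of ZC3H3 (count 152), beside 1 shared enhancer. The NKX6-1 member stood 205183 bp off with the second lowest count of the group (48.2), and the RFX6 member lay in an intron of the gene (74.6). PAX6, which keeps endocrine genes active, had a member of 5633 bp in an intron of its neighbour ELP4 with a count of 369. MLXIPL, the glucose-responsive factor ChREBP, had a member with a count of 4609, but its peak was 17979 bp wide, held start sites and was covered by the member to only 11%. GLIS3, INSM1 and TSHZ1 had 1 member each, with counts of 254, 77.5 and 142. Of the 19 members, 18 had a count below the median of 417 in shared enhancers. Over all members the median count was 136 and the upper quartile 201, so a count below 417 was usual. Shared enhancers also lay in wider peaks, with a median of 3416 bp against 1952 bp for members.

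Genes of the secretory granule and of exocytosis had 12 members among 91 senescent-list enhancers (13.2%, 7.71 to 21.6%). They included 1 in CPE, which trims insulin during processing (count 2320, a peak of 13966 bp of which the member covered 6.85%). Others were 1 of 5119 bp near the calcium sensor SYT7 (1477) and 4 in PTPRN2 (53.3 to 220). The member nearest to the proinsulin convertase PCSK1 (172) lay 137153 bp from its start. Channel genes had 16 of 93 (17.2%, 10.9 to 26.1%), among them 5 beside the calcium channel subunit CACNA2D1, 2 in CACNB2, the stronger with a count of 1046 and a CTCF peak of 167, 2 in CACNA1D and 2 in the potassium channel KCNN3. Islet receptor genes had 6 of 35 (17.1%), 1 each for HTR1F, IGF1R, CHRM3, PRLR, GLP1R and ADRA2A. Metabolic genes had 3 of 25 (12%), 2 of them at the glycolytic enzyme PFKP, with counts of 66.6 and 1450, and 1 near GPD2 (188). The study's own lists gave 13.2% (9.07 to 18.7%) for beta cell maturity, 25 of 190 and below the 20.5% of all genes, 18.2% (14.3 to 23%) for insulin secretion and 21.2% (14.8 to 29.4%) for the response to glucose.

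Neuronal adhesion and guidance genes had 36 members among 173 senescent-list enhancers (20.8%, 15.4 to 27.5%). Of 31 such genes, 17 (54.8%) had a member, against 10.5% of all genes. A shared enhancer was nearest to 24 of the 31, against 4992 of all 19663 genes. There were 3 members each beside the guidance ligand EFNA5 and the cadherin CDH4, and 2 in the receptor gene ROBO2. Among genes of other islet cells the share was 5 of 17 (29.4%, 13.3 to 53.1%), with 2 beside DPP4, and among exocrine and duct genes 5 of 24 (20.8%, 9.24 to 40.5%), with 2 each at NR5A2 and CPA1 and no other listed enhancer nearest to either. Matrix and mesenchyme genes had 4 of 20 (20%), 2 of them toward COL1A2. The intervals of these marker lists for other cells held the 20.5% of all genes, and were too wide to show how close to it the shares lay.

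Lists of the senescence programme had shares whose intervals all held that of all genes. The list of senescence inhibitors and the Rb family had 4 among 16 enhancers (25%, 10.2 to 49.5%), nearest to CDKN2C, HMGA1, HMGA2 and E2F5. CDKN2C encodes the CDK inhibitor p18, and its member at chr1:50985254-50987566 lay 16164 bp from a start in a peak of 21284 bp with a mean count of 6534, of which it covered 10.9%. No member was nearest to CDKN2A or CDKN1A. Secretory senescence factors had 2 of 16 (12.5%), nearest to IGFBP5 at 65823 bp and to IGFBP7 at 760292 bp. The study's SASP list had 7 of 36 (19.4%). Interferon genes had 2 of 19 (10.5%), near the receptor chains IFNAR1 (count 374, with a CTCF peak of 417 and no other listed enhancer) and IFNAR2 (113), and the study's interferon stimulated genes 45 of 259 (17.4%, 13.2 to 22.5%). In the study's replicative senescence list 23 of 112 were members (20.5%), and in its antigen presentation list 1 of 3.

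The p53 pathway had no larger share. Of 30 p53 target genes, FDXR, SESN1 and SPATA18 were nearest to 4 members among 21 senescent-list enhancers (19%, 7.67 to 40%), and the study's p53 pathway list gave 26 of 160 (16.2%). The full consensus of p53, without a spacer, was matched in 3 members, named after their sequence was seen and shown with the match in capitals.
PTCHD4, chr6:48111158-48111258: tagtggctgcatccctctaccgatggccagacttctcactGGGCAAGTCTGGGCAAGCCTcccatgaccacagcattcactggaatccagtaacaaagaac
MAP4K4, chr2:101704174-101704274: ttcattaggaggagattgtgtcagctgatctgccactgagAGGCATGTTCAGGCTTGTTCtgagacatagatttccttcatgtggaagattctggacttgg
RFLNA, chr12:124273747-124273847: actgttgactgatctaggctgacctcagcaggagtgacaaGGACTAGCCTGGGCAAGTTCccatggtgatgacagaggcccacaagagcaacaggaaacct

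In the central 500 bp the match was present in 1 of 2680 senescent-only, 1 of 10396 shared and 0 of 4371 non-senescent-only enhancers. For the last class 3 counts would be 0.0686%, and the Wilson upper limit is 0.0878%. Over whole widths each class held the match, at 6.45e-04 sites per kb in senescent-only, 1.93e-04 in shared and 1.29e-04 in non-senescent-only enhancers. The first rate rests on the 3 members shown. The PTCHD4 member had its centre 228 bp from a start of that gene, 547377 bp from the nearest non-senescent enhancer, with an H3K27ac mean count of 68.9. The MAP4K4 and RFLNA members lay in introns of those genes, with counts of 102 and 94.7, and each had exactly the bounds of its peak.

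Of all the gene lists compared, only the study's cell cycle and E2F target lists had an interval above that of all genes. The study's cell cycle list had 13 members among 33 senescent-list enhancers (39.4%, 24.7 to 56.3%). Its E2F target list had 28 of 91 (30.8%, 22.2 to 40.9%), against 20.5% (19.8 to 21.2%) over all genes. Only the beta cell maturity list had an interval below (9.07 to 18.7%). The intervals make no allowance for the number of lists. Whether counting error alone would place as many lists outside was not tested. The cell cycle and E2F target lists share genes, since TMPO, RFC2 and USP1 count in both. The E2F list is a published Hallmark set, and where the cell cycle list came from was not taken up here. The E2F target genes with most members were CSE1L, a nuclear export factor, and HNRNPD, with 2 each and no other listed enhancer. Others had 1 member, such as the kinase gene MELK (581), the histone chaperone RBBP7 (199) and the cohesin regulator PDS5B (214). In the cell cycle list, DTL, which directs degradation of replication factors, had 2 (448 in all) and KIF20B had 2 (220 in all), 1 of them the member with the Rb region. Of the 26 E2F target genes with a member, 12 had no other listed enhancer, beside 660 of the 2062 genes with a member in all. A shorter list of 35 cell cycle genes had 1 member among 9 enhancers (11.1%, 1.99 to 43.5%), near CCNE1. That interval holds both 20.5% and 39.4%, so it cannot show whether the share depended on which genes were taken.

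Genes of the AP-1 and MAF families had 4 members among 24 senescent-list enhancers (16.7%, 6.68 to 35.9%). They were nearest to JUN (count 448), the repressors BACH2 (320) and BACH1 (105), which pair with small MAF proteins, and FOSL2 (178). Distances to the start were 119845, 11052, 254469 and 237361 bp in that order. BACH2, BACH1 and FOSL2 members each overlapped a CTCF peak, and the JUN member did not, beside 18.6% of all members with such a peak. The CTCF mean counts were 106 for BACH2, 169 for FOSL2 and only 6.08 for BACH1, below the lower quartile of all CTCF peaks (20.2).

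The highest H3K27ac counts among the members belonged to wide peaks that the members only partly covered. Leaving out the 46 members whose peak also met a non-senescent enhancer, the first was in an intron of the splicing regulator CELF3, nearest to RIIAD1, at 11239 in a peak of 22321 bp, of which the member covered 8.59%. A pair in ACVR1C, the activin receptor ALK7, shared 1 peak of 31122 bp with a count of 9351. Others lay at PDXDC1 (6600), MRPL23 (5906), the lipogenic enzyme gene ACLY (5870) and RNF8 (4480), beside the CDKN2C and MLXIPL members given above. Of the 10 members ranked highest, 9 had a peak that held a protein-coding start, and that of MRPL23 did not, whereas 4.59% (3.86 to 5.45%) of all members had such a peak. These counts thus belong to the whole peak. The widest members were in MBNL1 (9991 bp, 130 per kb), at RNF8 (8773 bp), in AACS (8500 bp, 58.9 per kb), in MRPL23 (7480 bp) and near ZFP36 (7347 bp), and the ZFP36 member held a CTCF peak of 420.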

How the data were processed

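Chromatin immunoprecipitation and sequencing was done by the authors on EndoC-βH3 cells, with Bowtie2 alignment to hg38, HOMER peaks for the histone marks and MACS2 peaks for CTCF and Rb. Versions and the way replicates were combined into 1 list per state are not given in the sources used here. The deposited signal used here is the authors' mean normalised count per peak over the libraries of both states. The same tables also hold the authors' fold changes, standard errors, statistics and p-values for senescent against non-senescent cells, which were not used. All 24 chromosome names were found in hg38 and 0 regions ran past a chromosome end. Starts were taken as counted from 0 and are printed from 1.

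Overlap was 1 bp or more. Start sites were those of protein-coding transcripts in GENCODE release 44, measured from the enhancer centre. A peak's count per kb is its mean count divided by its width. Shares have 95% Wilson intervals and medians have binomial intervals (scipy 1.17.1), and sequence was read with pysam 0.24.0. With no value per library, no test was possible, and overlap functions were tested on simulated regions. Gene lists were matched by symbol or RefSeq synonym. Genes and members were named by rank (most members, highest H3K27ac or CTCF count, width, distance, Rb overlap, listed genes), apart from those said to be singled out later. The members and the lists were chosen with earlier results of these data known. A few members and genes that these rules name are not reported here.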

Additional observations from a re-analysis of the deposited data

How the results depend on the processing

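Alternatives concern how regions were defined, since the tables hold no values per library. No paired analysis was possible because no column holds a single library, and for the same reason no replicate could be left out. The number of senescent-only enhancers moved by less than 1.5 times under the 3 other overlap rules. The share of members with a CTCF peak was 15.9% when the peak centre had to lie inside and 9.51% with a mean count of 50 or more. The share with the centre of an H3K27ac peak inside was 92.1%. Within 1 kb of a protein-coding start lay 2.54%, and within 2 kb of the start of any gene type 14.6%. In 300 bp windows TGCTGAC was in 7.87% and CANATGG in 19.8% of members, as shorter windows hold fewer words, and 0 held a p53 match. Of 38 alternatives planned, 25 stayed within the interval of the value reported or, for counts of enhancers and genes, within 1.5 times of it. Alternatives chosen after seeing the data were the class differences of the 4 MAF and E-box words in 300 bp windows, in windows at the H3K27ac peak and without chromosome 20. All 24 kept their sign. Restricting H3K27ac to members that cover 80% or more of their peak gave 68.5 per kb. The single list per state limits every share, and depth per library was not analysed here.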
